A study of Mus musculus with 15 samples.

Results

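The carriers of the mitochondrial inner membrane, the Slc25 family, were examined here together with the uncoupling proteins Ucp2 and Ucp3, which belong to the same family by structure. Members were all gene symbols of the deposited count table that begin with Slc25a, plus Ucp2 and Ucp3, without Slc25a1, Slc25a11, Slc25a12, Slc25a13, Slc25a17 and Slc25a20. This gave 32 genes of 13602. Mcart1 and Mcart6, the older symbols of 2 further family members, do not carry the family symbol and were not counted. Slc25a3 was not analysed here.

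Gene expression came from the gastrocnemius, a calf muscle, of male mice. The 7 knockout mice lacked Cpt1b in skeletal muscle only, and the 8 control mice are labelled wild type (floxed). Cpt1b encodes the outer-membrane enzyme that commits long-chain fatty acids to entry into the mitochondrion. The promoter that drove the deletion, the age of the mice and whether littermates were used are not given in the sources used here. Sample titles and the design text speak of chow, fed for 12 to 14 weeks, while the diet field of every sample reads 45% HFD, in both groups alike. The assay was SAGE, which counts 1 tag per transcript molecule whatever its length, so levels in CPM (tag counts scaled to a common library total) need no length term. How completely the tags of each gene were captured and assigned was not tested, so orders of genes by level and shares of tags are orders and shares of assigned tags, not of transcripts. Among subunits of the ATP synthase, for example, control means ran from 5.61 CPM for Atp5o to 4072 CPM for Atp5d.

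Mitochondrial carriers are small membrane proteins that exchange nucleotides, phosphate, cofactors, amino acids and keto acids between the cytosol and the matrix. The inner membrane is otherwise closed to such solutes, so carriers set which substrates the matrix receives. Uncoupling proteins share this fold, and Ucp3 is the form typical of skeletal muscle, where it is known as a target of fatty acid signalling.

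The libraries held 8334436 to 16238258 tags in controls and 9390065 to 19397255 in knockouts. Cpt1b tags ranged from 4.44 to 13.1 CPM in controls and from 1.096 to 6.46 CPM in knockouts (log2 difference -1.03 ± 0.31 SE, edgeR adjusted p = 0.103). The labels do not say which exons were removed, so a 3' tag may lie outside the deleted part. Neither this nor any other reason for the remaining Cpt1b tags was tested. Markers of skeletal muscle were high in every library, with a summed level of 7 genes of 46981 to 77391 CPM in controls and 36015 to 59347 CPM in knockouts. Of these 7 markers 6 had a negative and 1 a positive fold change. At an unadjusted p under 0.05, 2 were lower and 0 higher, against 5.92% and 7.65% of all genes. Tnnt3, a troponin of fast fibres, was called lower. Control replicate 7 and knockout replicate 4 lay at the extreme of the leading principal component within their groups (loadings 0.40 and 0.60, 44.6% of the variance). That component did not separate the genotypes, since controls ran from -0.34 to 0.40 and knockouts from -0.15 to 0.60.

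The tags on which the main results rest are shown first, because in SAGE only this stretch identifies the gene. They were predicted from a chosen coding transcript of each gene in GENCODE M21 (GRCm38). Each is the 27 bases that begin at the CATG nearest the 3' end with room for a full tag in the transcript. CATG is the usual anchoring site of SAGE and is in capitals. The anchoring enzyme is not given in the sources used here, nor were observed tag sequences used.
Ucp3: CATGtaaaaacataaaaataaaaagtt
Ucp2: CATGcaggcaaaacaactttattccac
Slc25a4: CATGcttaggaagtgccaggttttgtg
Slc25a5: CATGttgtataatataccatatcttga
Slc25a22: CATGtaaaaaataaataaatattctaa
Slc25a42: CATGgtcactgtccagtagctctgtgg
Slc25a34: CATGtgggtcacggagcagagccactg

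A tag could be predicted for all 32 members. None of the 32 predicted tags stood at a CATG of another gene's annotated transcript. The predicted tags thus differed within the closely related pairs Ucp2 and Ucp3, and Slc25a4 and Slc25a5. Only the predicted tag of the chosen transcript was searched for, and the tags of other transcripts of a gene were not. The predicted tags of Ucp3 and Slc25a22 begin 35 and 37 bases from the transcript end and are rich in A and T. The coding transcripts of Slc25a22 gave 6 different tags over 12 transcripts, those of Ucp2 5 over 5 and those of Ucp3 2 over 2, so the counts of these 3 genes may sum several tags. Slc25a34, Slc25a42, Slc25a4 and Slc25a5 each had 1 tag in all their coding transcripts.

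Most tags assigned to members came from 1 gene. Slc25a4, the adenine nucleotide translocase of muscle and heart, made up 93.9% to 95.3% of member tags in controls and 91.5% to 95.3% in knockouts. Its control mean of 11872 CPM compared with 190 CPM for Ucp3, the next in order. Of the 32 members 2 had a control mean over 100 CPM, 12 lay between 10 and 100 CPM and 18 were under 10 CPM. Slc25a5, Slc25a39 and Slc25a46 stood at 52.1, 51.9 and 46.2 CPM, differences within their spread. Slc25a37, Slc25a42, Slc25a28 and Slc25a44 formed a similar run from 27.7 to 24.2 CPM. Every gene of the count table used had at least 22 tags over the libraries and counts in at least 6 of them. Detection of all 32 members was thus fixed by that table. Slc25a2, an ornithine carrier, averaged 0.59 CPM in controls and 0.54 CPM in knockouts (mean of 7 tags a library). It was the 1 member that did not pass the filter on low counts.

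In knockout muscle 4 of the 31 tested members rose and none fell. They were Slc25a34, Slc25a22, Slc25a42 and Ucp3, with means 2.12 to 3.64 times those of controls. A gene was called at an adjusted p of 0.05 or less over all 11062 genes tested (edgeR quasi-likelihood test). Over all these genes 1.67% were called higher and 0.497% lower. Ucp3, Slc25a42 and Slc25a22 belong to different transport roles, and Slc25a34 has none assigned here. A further 6 members were higher and 2 lower at an unadjusted p under 0.05, so that 10 of 31 members were higher and 2 lower at that level, against 7.65% and 5.92% of all genes. DESeq2 called 6 members higher and 1 lower, where it called 302 higher and 159 lower of all 11062 genes. Without control replicate 7 and knockout replicate 4 edgeR called 5 members higher, the 4 and Slc25a5, and none lower. Of all 10975 genes tested in that fit, 255 were called higher and 148 lower. In bulk muscle, fewer cells of a type and less RNA per cell cannot be told apart. Of the tested members 18 had a positive fold change, where 50.6% of all genes did, and the median log2 fold change was 0.11, against 0.00 over all genes.

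**Figure D1:**
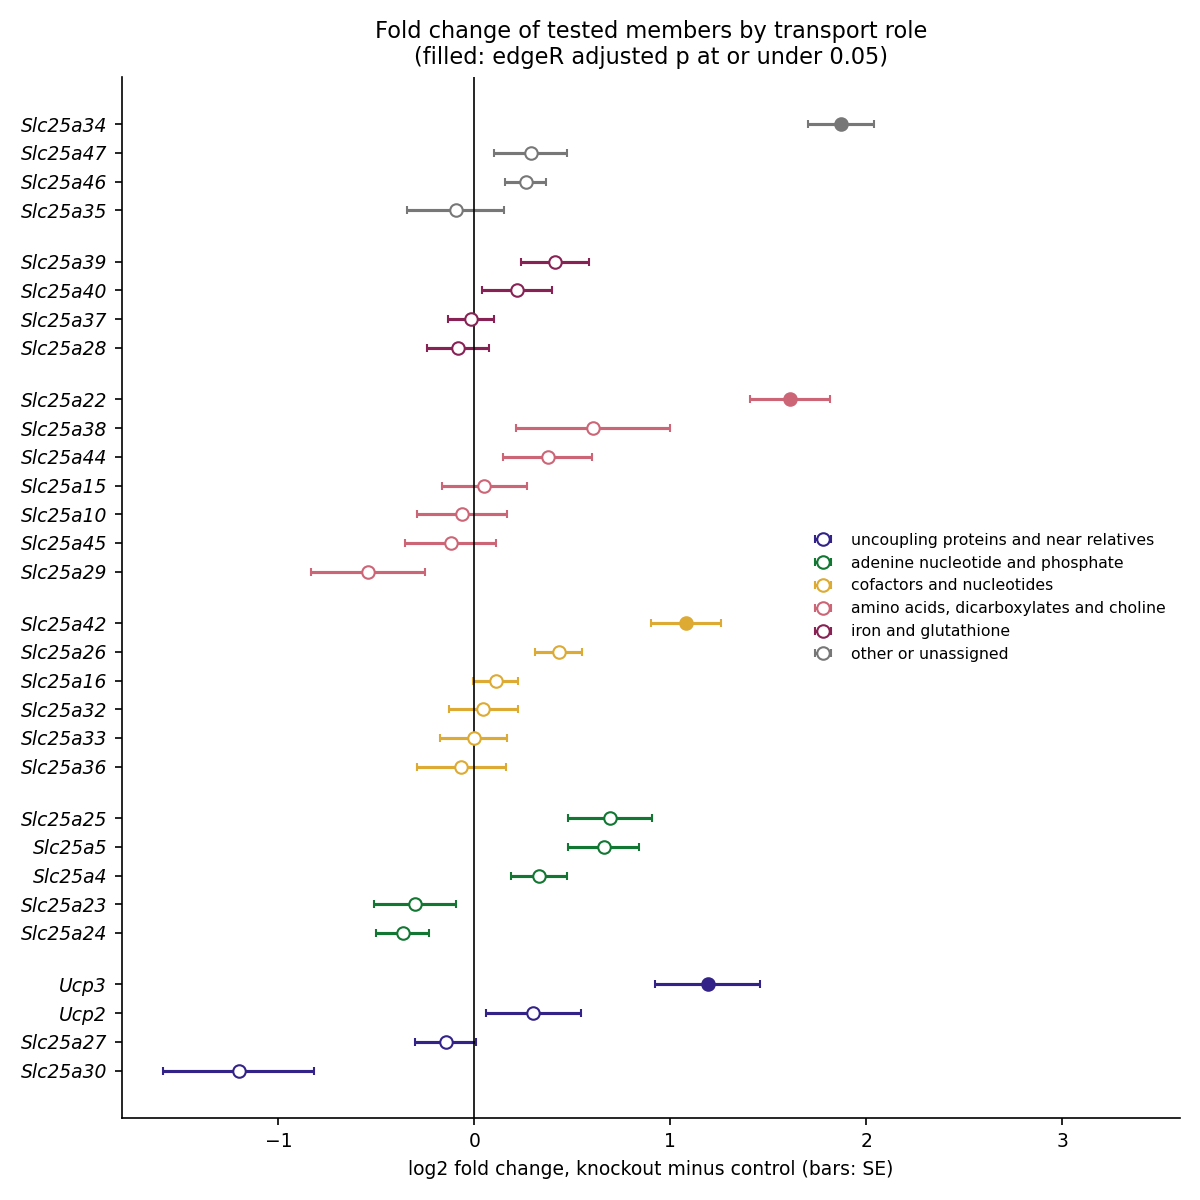
Log2 fold change of knockout minus control (x axis) for 30 of the 31 tested members, grouped and coloured by transport role, with bars of 1 SE. Filled points mark the 4 members called higher. Slc25a34, Slc25a22, Ucp3 and Slc25a42 lie beyond 1 on the log2 scale, and Slc25a30 lies at -1.20 without passing the test.

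Among the uncoupling proteins and their near relatives, Ucp3 rose and Ucp2 did not pass the test. Ucp3 lies on chromosome 7 from 100472990 to 100486432 (GRCm38, plus strand), and Ucp2 follows on the same strand from 100493337 to 100502020, with 6904 bases between them. Ucp3 ranged from 82.4 to 304 CPM with a median of 205 CPM in controls. In knockouts it ranged from 271 to 732 CPM (the highest in knockout replicate 4) with a median of 385 CPM. The groups overlapped, because control replicate 7 (304 CPM) lay above knockout replicates 1 and 3 (271 and 298 CPM), while 5 knockouts lay above every control. Ucp3 was widely spread in both groups, with a coefficient of variation of 39.1% in controls and 36.9% in knockouts, and control replicates 1 and 2 (82.4 and 90.9 CPM) stood well below the other 6.

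The mean of Ucp3 rose from 190 ± 74.4 (SD, n = 8) to 434 ± 160 CPM (SD, n = 7), a log2 fold change of 1.19 ± 0.27 (SE, edgeR adjusted p = 0.0219). The call was lost without knockout replicate 2 (adjusted p = 0.0512) and without knockout replicate 7 (adjusted p = 0.0545), at log2 differences of 1.17 and 1.13. Without control replicate 7 and knockout replicate 4 together it held, with a log2 difference of 1.13 (adjusted p = 0.00947).

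Ucp2, the uncoupling protein found in many tissues and in immune cells, ranged from 3.89 to 10.5 CPM in controls, with a median of 6.46 CPM. Knockouts ranged from 4.67 to 13.1 CPM, with a median of 8.05 CPM. The groups overlapped over most of their range, and the log2 difference was 0.30 ± 0.24 (SE, edgeR adjusted p = 0.595). Ucp3 tags outnumbered Ucp2 tags 13.1 to 55.8 times in controls and 22.7 to 97.8 times in knockouts. The difference between the responses of the 2 genes was not tested. Macrophage markers (6 of 7 listed genes measured) summed to 21.6 to 40.8 CPM in controls and 13.3 to 28.2 CPM in knockouts. All 5 tested markers were lower in knockouts, 2 of them at an unadjusted p under 0.05 (5.92% of all genes), and none was called. Their part in the Ucp2 level was not tested.

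Slc25a27, also named Ucp4 and best known from brain, averaged 5.99 ± 1.40 CPM in controls, against 5.43 ± 0.56 CPM in knockouts (log2 -0.15 ± 0.16 SE). Slc25a30, a relative of the uncoupling proteins first described in kidney, ranged from 1.24 to 5.95 CPM with a median of 2.28 CPM in controls. The knockout libraries ran from 0.43 to 2.28 CPM with a median of 0.98 CPM. Knockout replicates 4 to 7 lay below every control and knockout replicates 1 to 3 among them. The log2 difference of -1.20 ± 0.38 (SE) was the furthest below 0 of any member and did not pass (edgeR adjusted p = 0.135). It rests on a mean of 25.9 tags a library, and DESeq2 placed it past the threshold (adjusted p = 0.0440).

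**Figure D2:**
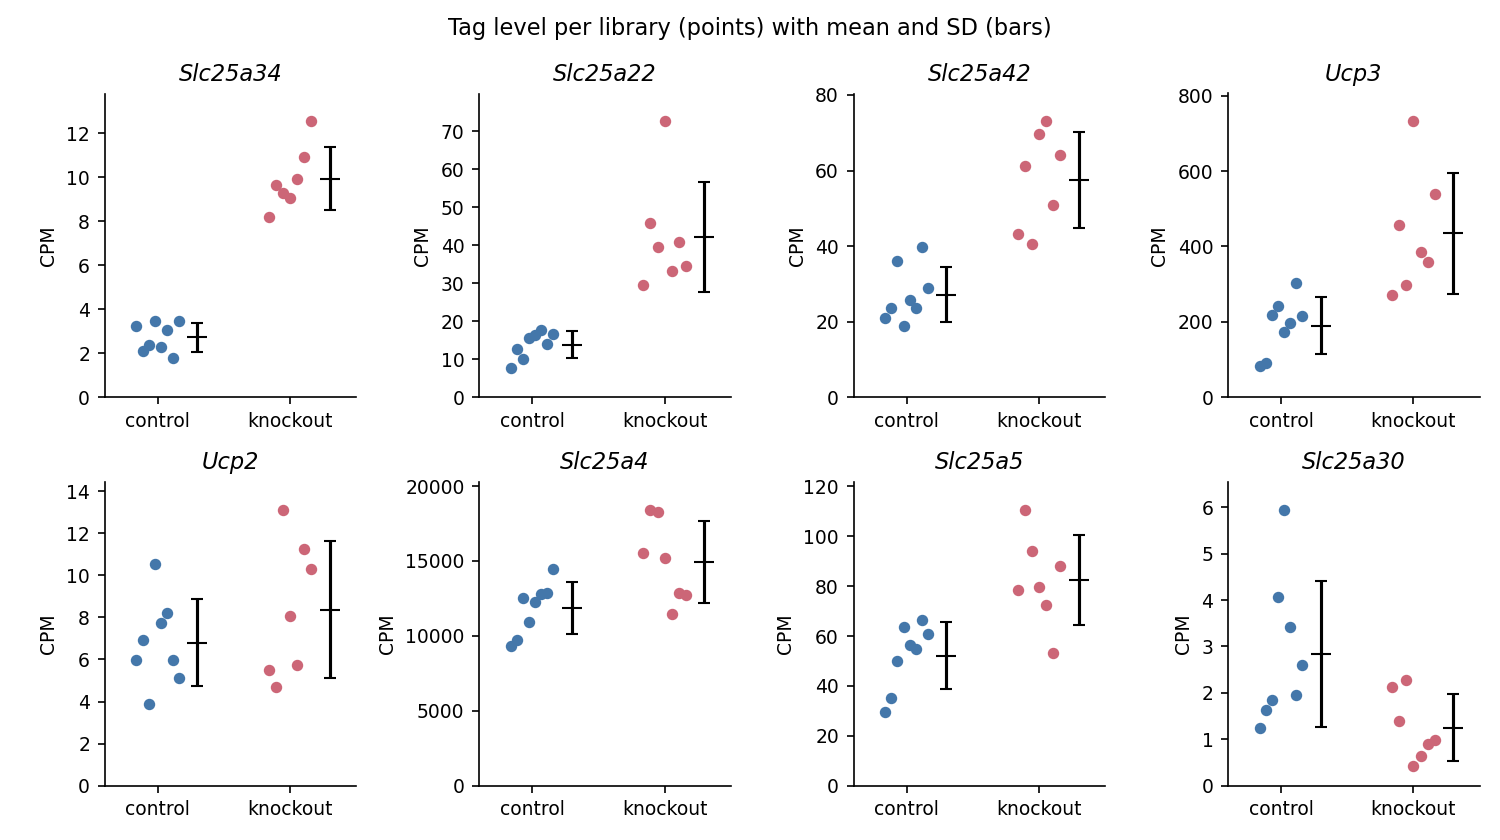
CPM in each library (points, spread sideways for visibility) for 8 members, with the mean and SD of each group (bars), and a linear axis from 0. The groups are apart for Slc25a34, Slc25a22 and Slc25a42, overlap at the edge for Ucp3, and overlap more widely for Ucp2, Slc25a4 and Slc25a30. For Slc25a5, knockout replicate 6 (53.1 CPM) lies among the controls (median 55.7 CPM) and the other knockouts lie above them.

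The carriers of adenine nucleotides and phosphate had no called member. Slc25a4, which exchanges ADP for ATP, lies on chromosome 8 from 46206797 to 46211284. It ranged from 9296 to 14447 CPM with a median of 12420 CPM in controls. In knockouts it ranged from 11484 to 18430 CPM with a median of 15208 CPM. Knockout replicates 1 to 4 lay above every control, and knockout replicates 5, 6 and 7 lay within the control range. The log2 difference of 0.33 ± 0.14 (SE) did not pass over all genes (edgeR adjusted p = 0.318, unadjusted p = 0.0325). The gene had a mean of 171593 tags a library, and spread between mice and between library preparations cannot be told apart.

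Slc25a5, the translocase isoform of many other tissues (chromosome X, 36795651 to 36798807), ranged from 29.4 to 66.6 CPM with a median of 55.7 CPM in controls. Knockouts ranged from 53.1 to 111 CPM with a median of 79.8 CPM. All knockouts except replicate 6 (53.1 CPM) lay above every control. The log2 difference was 0.66 ± 0.18 (SE, edgeR adjusted p = 0.0712). It passed without control replicate 7 (adjusted p = 0.0326), without knockout replicate 6 (0.0309), without control replicate 7 and knockout replicate 4 together (0.0384) and by DESeq2 (0.0213). Slc25a4 tags outnumbered Slc25a5 tags 172 to 316 times in controls and 144 to 243 times in knockouts.

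None of the calcium-sensitive carriers that exchange ATP-Mg for phosphate passed the test, and the difference between them was not tested. Slc25a25 ranged from 4.14 to 17.3 CPM in controls (median 11.02 CPM) and from 14.2 to 22.5 CPM in knockouts (median 18.1 CPM). Its log2 difference of 0.69 ± 0.21 (SE) did not pass (edgeR adjusted p = 0.118). It passed without control replicate 7, the lowest control (adjusted p = 0.0464). Slc25a24 averaged 8.21 ± 1.38 CPM in controls, against 6.37 ± 0.70 CPM in knockouts (log2 -0.37 ± 0.14 SE, edgeR adjusted p = 0.226). Slc25a23 was at 8.02 ± 2.59 and 6.49 ± 1.61 CPM, with a log2 difference of -0.30 ± 0.21 (SE).

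Of 7 carriers of cofactors and nucleotides 1 rose, Slc25a42, which brings coenzyme A into the matrix in exchange for adenine nucleotides. The gene lies on chromosome 8 from 70184340 to 70212305 (minus strand). It ranged from 18.9 to 39.6 CPM with a median of 24.7 CPM in controls. The knockout libraries ran from 40.7 to 73.1 CPM with a median of 61.1 CPM. Every knockout lay above every control, although control replicate 7 (39.6 CPM) and knockout replicate 3 (40.7 CPM) were close. The mean rose from 27.2 ± 7.29 (SD, n = 8) to 57.5 ± 12.8 CPM (SD, n = 7), a log2 fold change of 1.08 ± 0.18 (SE, edgeR adjusted p = 0.00152). The call held in all 23 other fits, with adjusted p from 1.043e-06 to 0.0209.

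Slc25a26, which imports S-adenosylmethionine, ranged from 9.38 to 14.4 CPM in controls (median 10.9 CPM) and from 12.5 to 16.8 CPM in knockouts (median 15.2 CPM). All controls except replicate 5 lay below every knockout. The log2 difference of 0.43 ± 0.12 (SE) did not pass (edgeR adjusted p = 0.0734), but passed by DESeq2 (adjusted p = 0.0156) and without control replicate 5 (adjusted p = 0.0325). Slc25a16, linked to coenzyme A and the most abundant carrier of this role, averaged 78.3 ± 9.77 CPM in controls, against 84.4 ± 11.9 CPM in knockouts (log2 0.11 ± 0.12 SE, edgeR adjusted p = 0.688). Thus 1 of the 2 carriers linked to coenzyme A was called, and the difference between them was not tested. The pyrimidine nucleotide carriers Slc25a33 and Slc25a36 and the folate carrier Slc25a32 had log2 differences of 0.00, -0.07 and 0.05, none past an unadjusted p of 0.05.

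Of the 8 carriers of amino acids and dicarboxylates 7 were tested and 1 rose, Slc25a22, which carries glutamate into the matrix together with a proton. The gene lies on chromosome 7 from 141429744 to 141437892 (minus strand). It ranged from 7.70 to 17.6 CPM with a median of 14.8 CPM in controls. In knockouts it ranged from 29.5 to 72.7 CPM with a median of 39.4 CPM. Every knockout lay above every control, and knockout replicate 4 (72.7 CPM) lay far above the next knockout (45.8 CPM). The mean rose from 13.8 ± 3.48 (SD, n = 8) to 42.3 ± 14.5 CPM (SD, n = 7), a log2 fold change of 1.61 ± 0.20 (SE, edgeR adjusted p = 0.000100). Without control replicate 7 and knockout replicate 4 it was 1.42 (adjusted p = 5.7e-05).

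The other tested carriers of this role did not pass. Slc25a44, the mitochondrial carrier of branched-chain amino acids, ranged from 16.4 to 38.4 CPM in controls and from 19.5 to 46.3 CPM in knockouts (log2 0.37 ± 0.22 SE, edgeR adjusted p = 0.479). Slc25a38, which brings glycine in for heme synthesis, had a log2 difference of 0.61 ± 0.39 (SE), and Slc25a29, a carrier of basic amino acids, one of -0.54 ± 0.29 (SE). The ornithine carrier Slc25a15, the dicarboxylate carrier Slc25a10 and Slc25a45 lay between -0.12 and 0.05.

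None of the 4 carriers of iron and glutathione was called by edgeR or DESeq2, and 1 (Slc25a39) was higher at an unadjusted p under 0.05. Slc25a39, which imports glutathione, ranged from 32.9 to 74.7 CPM in controls (median 49.7 CPM) and from 53.6 to 89.4 CPM in knockouts (median 73.1 CPM). The log2 difference was 0.41 ± 0.18 (SE, edgeR adjusted p = 0.307, unadjusted p = 0.0299). Its relative Slc25a40 had a log2 difference of 0.22. The iron carriers Slc25a37 and Slc25a28, also called mitoferrins, had log2 differences of -0.02 ± 0.12 and -0.08 ± 0.16 (SE). Erythroid markers (3 of 6 listed genes measured) summed to 15.8 to 91.0 CPM in controls, with the highest in control replicate 7, and to 12.1 to 56.2 CPM in knockouts, and their part in the levels of Slc25a37 and Slc25a38 was not tested.

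Of the 4 members of other or unassigned function, Slc25a34 rose, with the smallest adjusted p of all members. It is a carrier whose substrate is not established, on chromosome 4 from 141618824 to 141623821 (minus strand). It ranged from 1.80 to 3.49 CPM with a median of 2.72 CPM in controls. Knockouts ranged from 8.19 to 12.6 CPM with a median of 9.66 CPM. The groups were far apart, with the lowest knockout (replicate 1) at 8.19 CPM and the highest control (replicate 8) at 3.49 CPM. The mean rose from 2.73 ± 0.66 (SD, n = 8) to 9.94 ± 1.42 CPM (SD, n = 7), a log2 fold change of 1.87 ± 0.17 (SE, edgeR adjusted p = 1.271e-06). By p-value it ranked 11 among the 11062 genes tested, and Slc25a22 ranked 33, Slc25a42 63 and Ucp3 161. The counts of Slc25a34 are low, with 77.5 tags a library on average.

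Slc25a46, an outer-membrane member of the family that acts in mitochondrial shape, averaged 46.2 ± 4.31 CPM in controls, against 55.4 ± 5.89 CPM in knockouts (log2 0.26 ± 0.10 SE, edgeR adjusted p = 0.262). Slc25a47 and Slc25a35 had log2 differences of 0.29 and -0.09. Over all tested members, 3 (Slc25a34, Slc25a22 and Slc25a42) had every knockout above every control, where 0.967% of all genes did. No member had every knockout below every control, and the share of all genes in that direction was not counted. The 19 members with an unadjusted p of 0.05 or more had log2 differences from -0.54 to 0.61.

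**Figure D3:**
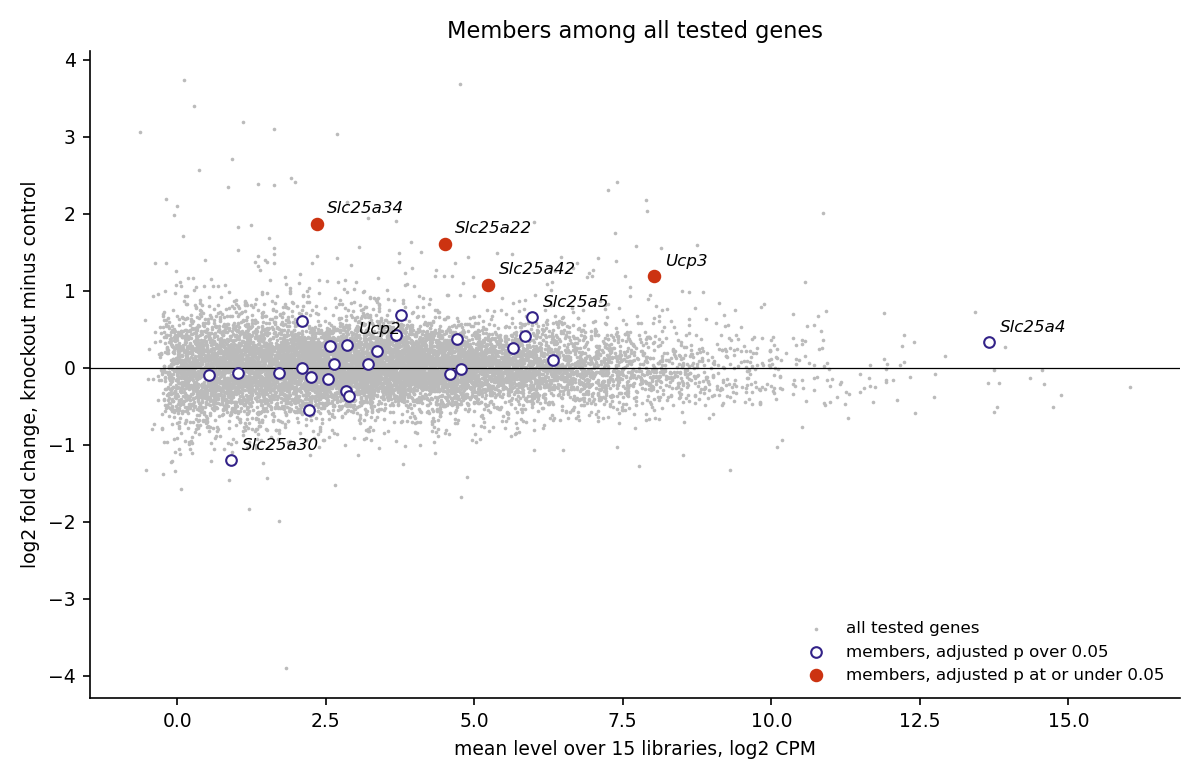
Mean level over the 15 libraries in log2 CPM (x axis) against the log2 fold change (y axis) for all 11062 tested genes (grey) and 30 of the 31 tested members (circles, filled where called). The called members span levels from that of Slc25a34 to that of Ucp3, and Slc25a4 lies near the top of the range of levels.

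The sum of all members other than Slc25a4 was 527 to 823 CPM in controls and 860 to 1403 CPM in knockouts. With Ucp3 also left out it was 444 to 519 CPM in controls and 582 to 672 CPM in knockouts. These sums are given as a description, and the called genes are part of them.

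**Figure D4:**
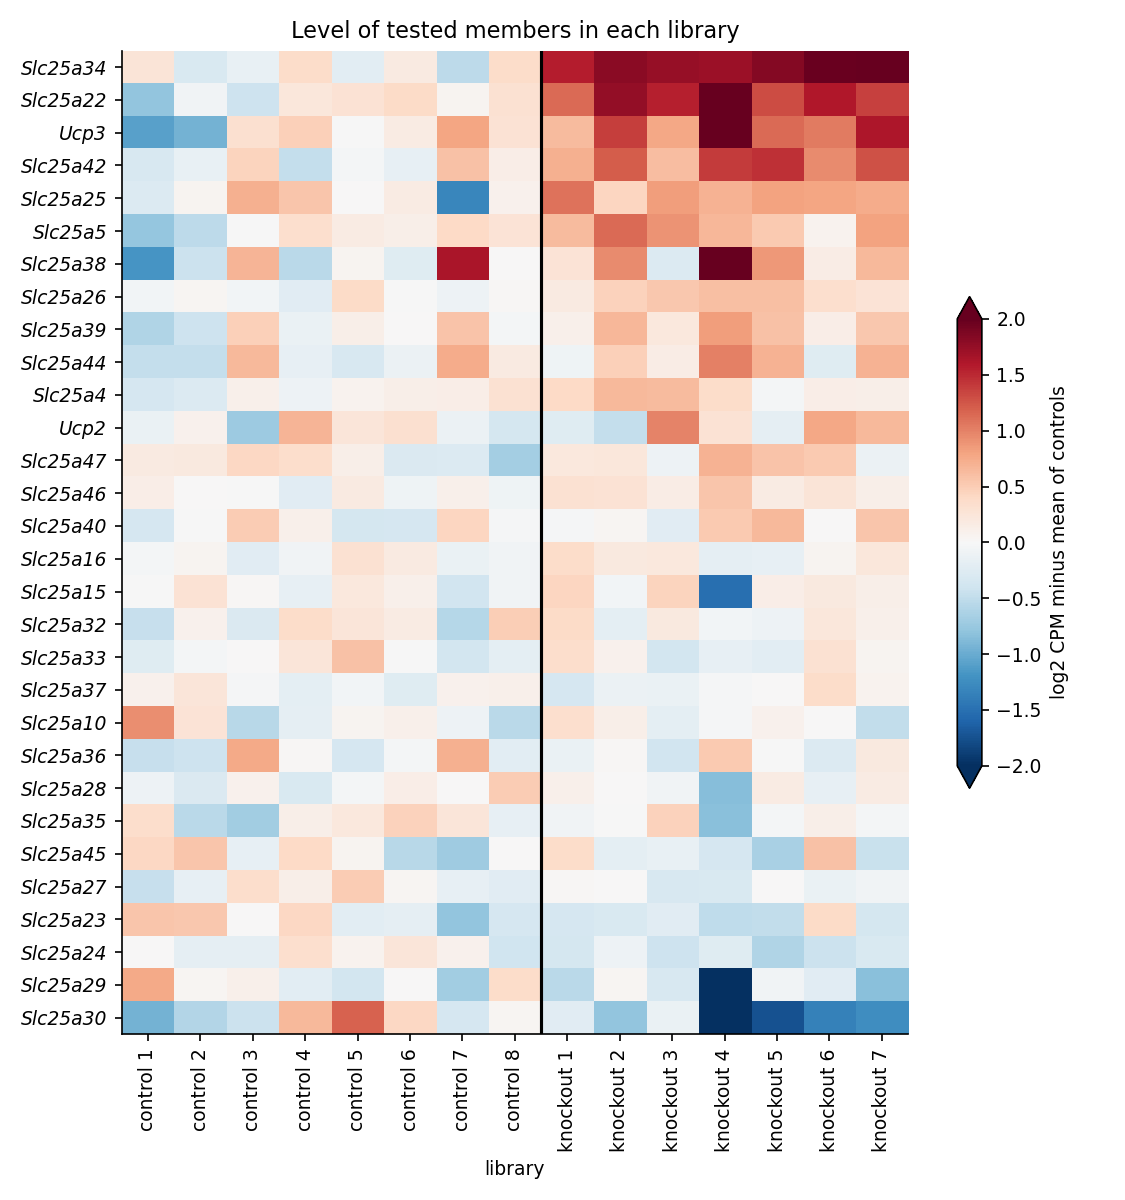
Log2 CPM of 30 of the 31 tested members (rows, ordered by fold change) in each library (columns), relative to the mean of the controls, with colours capped at 2 on either side. The top 4 rows are higher in the knockout columns, while Slc25a38 is highest, and Slc25a29 lowest, in control replicate 7 and knockout replicate 4 within their groups.

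The region around the start sites of the members was searched for the hexamer AGGTCA, the core sequence bound by nuclear receptors such as the PPARs, because Ucp3 is a known PPAR target. RefSeq promoters (GRCm38.p6, 250 bases before to 50 bases after the start) were at hand for 23 members, in 29 windows. On both strands, AGGTCA stood in 5 of the 29 windows (17.2%), against 16.3% of all 32851 promoters. The 5 windows belong to Ucp3, Slc25a34, Slc25a39, Slc25a45 and Slc25a47. Of the called genes Ucp3 had 2 matches, at -149 and -44 on the plus strand of the gene, and Slc25a34 had 1 on the opposite strand, at -119. The windows of Slc25a22 and Slc25a42 had none. The tandem form AGGTCANAGGTCA, with up to 1 mismatch outside N, stood in no member window (0.554% of all promoters), nor did the longer TCAAGGTCA (0.423%), which contains the hexamer. The windows of Ucp3 (chr7:100472741-100473040, plus strand) and Slc25a34 (chr4:141623785-141624084, minus strand) are given 5′ to 3′ with AGGTCA or its reverse complement in capitals.
Ucp3: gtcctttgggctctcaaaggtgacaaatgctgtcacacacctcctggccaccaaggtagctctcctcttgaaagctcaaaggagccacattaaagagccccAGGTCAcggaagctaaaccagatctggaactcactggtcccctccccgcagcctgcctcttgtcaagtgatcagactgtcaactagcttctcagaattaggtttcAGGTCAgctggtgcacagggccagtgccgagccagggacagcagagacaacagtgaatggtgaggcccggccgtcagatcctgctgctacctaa
Slc25a34: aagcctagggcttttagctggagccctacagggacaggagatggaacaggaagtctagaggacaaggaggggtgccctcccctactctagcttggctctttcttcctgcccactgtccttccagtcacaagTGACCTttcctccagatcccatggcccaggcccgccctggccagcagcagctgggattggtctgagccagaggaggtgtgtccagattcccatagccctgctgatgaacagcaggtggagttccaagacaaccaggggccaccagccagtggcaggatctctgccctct

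A match of these letters is a description of the sequence and shows no binding.

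Other genes of mitochondrial transport give the setting. Of the 6 family members left out, Slc25a13, the liver-type aspartate-glutamate carrier, rose from 5.11 ± 1.65 to 15.2 ± 4.31 CPM (log2 1.58 ± 0.22 SE, edgeR adjusted p = 0.000340). Slc25a20, which exchanges acylcarnitine for carnitine, rose from 32.9 ± 14.9 to 91.7 ± 28.8 CPM (log2 1.47 ± 0.26 SE, edgeR adjusted p = 0.00332), and the other 4 were not called. Of 17 tested other transport proteins (the pyruvate carrier, sideroflexins, VDAC porins and the calcium uniporter among them) none was called by edgeR, with a median log2 difference of 0.12, and 3 were higher and 1 lower at an unadjusted p under 0.05. Mpc1, a subunit of the pyruvate carrier, was the furthest above 0 of these, at 1601 ± 639 CPM in controls, against 2667 ± 315 CPM in knockouts (log2 0.74 ± 0.23 SE, edgeR adjusted p = 0.131). Of 16 ATP synthase subunits and their inhibitor, which work with Slc25a4 in supplying ATP, none was called either, and the median was 0.34. At an unadjusted p under 0.05, 6 of these were higher and none lower. Over all tested genes 7.65% were higher and 5.92% lower at that level, and 1.67% were called higher and 0.497% lower.

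Markers of other cell types were looked at beside these results. Adipocyte markers (6 of 7 measured) summed to 863 to 1167 CPM in controls and 905 to 1642 CPM in knockouts, of which Lep was called lower. Most of this sum was Fabp4, with means of 949 CPM in controls and 1105 CPM in knockouts. Of the 6 adipocyte markers tested, 3 had a positive and 3 a negative fold change. Endothelial markers (6 of 6 measured) summed to 201 to 317 CPM in controls and 191 to 291 CPM in knockouts, with none called. Every gene of the count table used had counts in at least 6 libraries, so no measured marker could be at 0 in all of them. Ucp1, the uncoupling protein that defines brown fat, was not analysed here. The part of these cell types in the rise of the 4 called members was not tested.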

How the data were processed

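Tag counts per gene symbol from 15 SAGE libraries (8 control and 7 knockout mice, 8334436 to 19397255 tags each) were used as the authors deposited them. The deposited normalized table is a signal, equal to the counts divided by 1 factor a library (13601 symbols shared, largest relative deviation 5.4e-10), and served only for those factors. The submitters' processing notes name DESeq2, mm10 and GRCm38.p1. The aligner, tag counting and annotation release are not given in the sources used here.

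As the main test, edgeR 4.0.16 (R 4.3.3, quasi-likelihood, robust, TMM scaling, group as the only term, filterByExpr with a minimum count of 10), was run on the counts. Of 13602 symbols 2540 were removed and 11062 tested, with Benjamini-Hochberg adjustment over all of them at 0.05. The common biological coefficient of variation was 0.291. SE is the absolute log2 fold change over the square root of F. CPM used TMM-adjusted totals, and log2 CPM a prior count of 2. Low members carry more counting error. DESeq2 1.42.0, limma 3.58.1 (voom), other scalings, no filter, a replicate block and leaving out each library were the alternatives, and leaving out control replicate 7 with knockout replicate 4 was chosen after seeing the data. The fit was tested on simulated data.

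Described with full values were Ucp2, Ucp3, Slc25a4 and Slc25a5, members with an unadjusted p under 0.05, the most abundant member of each role, members whose groups do not overlap, and called genes of the other lists. Other values were given to account for each member, except 1 that is counted but not reported here. The members and lists were chosen with earlier results of these data known. The replicate numbers of the titles were not taken as pairs.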

Additional observations from a re-analysis of the deposited data

Results flagged for a closer look

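Within a group of 7 or 8 libraries, some members had a highest or lowest library far from the next, by the gap between them over the range of the group (Dixon's 95% value). Of 64 combinations of member and group, 10 such ends were found, where chance marks about 1 in 20 groups. Of these, 5 lay in knockout replicate 4 and 1 in control replicate 7.

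In knockout replicate 4, Slc25a22 was at 72.7 CPM (next 45.8), Slc25a38 at 14.2 CPM (next 6.47) and Slc25a46 at 67.3 CPM (next 56.6). In the same library Slc25a15 was low at 3.14 CPM (next 8.84) and Slc25a28 low at 13.5 CPM (next 21.9). Slc25a38 was also high in control replicate 7, at 10.6 CPM (next 5.33). The other cases were Slc25a10 in control replicate 1 at 3.73 CPM (next 2.31), Slc25a26 in control replicate 5 at 14.4 CPM (next 11.4) and Slc25a28 in control replicate 8 at 34.9 CPM (next 26.99). The last was Slc25a23 in knockout replicate 6 at 10.02 CPM (next 6.52).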

How the results depend on the processing

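Slc25a34, Slc25a22 and Slc25a42 passed the threshold in all 23 other fits, and Ucp3 in all but those without knockout replicate 2 or 7. Of 345 alternative fits of 15 members, 335 kept their direction and side of the threshold, 2 lost a call (Ucp3), 8 gained one (Slc25a5, Slc25a25, Slc25a26 and Slc25a30) and none reversed. Leaving out 1 library gave 3 to 6 members called higher and 0 lower, with a median log2 fold change of 0.06 to 0.17. DESeq2 called 1 member lower (Slc25a30). Over all genes, 185 higher and 55 lower became 302 and 159 with DESeq2. Without 1 library they became 131 to 311 and 30 to 154. Without control replicate 7 they were 311 and 154. The lower count was 35 and 30 when control replicate 1 or 6 was left out, 30 and 34 when knockout replicate 2 or 7 was, and 148 with control replicate 7 and knockout replicate 4 both left out. The cause was not tested.

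The share of calls that were higher was 77.1%, and 65.5% with DESeq2, 66.9% when control replicate 7 was left out and 63.3% when knockout replicate 4 was left out with it. Same-numbered libraries did not deviate together (correlations -0.45 to 0.31 over 7 pairs, 1 knockout closest to its own number). With a replicate block, 98 genes were called higher and 19 lower, and 4 members higher and 0 lower. Slc25a30, Slc25a35 and Slc25a2 had means of 25.9, 16.7 and 7.0 tags a library, and the part of counting error in their spread was not tested.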

Other observations

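Apart from genotype, some carriers shared a pattern between single libraries of both groups. These genes were picked after their values were seen, and the pattern was not tested. Slc25a38, the glycine carrier of heme synthesis, was highest of its group in control replicate 7 (10.6 CPM) and in knockout replicate 4 (14.2 CPM). In these same libraries Slc25a29, a carrier of basic amino acids, was lowest of its group, at 3.34 and 1.00 CPM. Control replicate 1 showed the opposite for both, with Slc25a38 lowest of the controls at 1.37 CPM and Slc25a29 highest at 9.44 CPM. The called gene Ucp3 was likewise highest of its group in control replicate 7 (304 CPM) and in knockout replicate 4 (732 CPM). Ucp3 was also lowest of the controls in control replicate 1 (82.4 CPM), and Slc25a39 and Slc25a44 shared these positions. Of the 31 tested members, knockout replicate 4 was the highest library of its group for 8 and the lowest for 8, control replicate 7 for 6 and 9, and control replicate 1 for 4 and 10. Both control replicate 7 and knockout replicate 4 were the deepest libraries of their groups.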
